A study of Homo sapiens with 6 samples.

Results

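The 10 genes described here encode the abundant folding machinery of the cytosol and the mitochondrial matrix: the HSP70 proteins HSPA8 and HSPA9, the related HSP110-type proteins HSPA4 and HSPH1, the cytosolic HSP90 pair HSP90AA1 and HSP90AB1, the mitochondrial chaperonin HSPD1 with its lid HSPE1, the J-domain protein DNAJB1 and the small heat shock protein HSPB1. They were chosen by gene symbol as members of these chaperone families, and all 10 were found among the 26334 genes counted. All 10 also passed the filter on low counts, which left 16117 genes for testing. They were measured by poly-A RNA sequencing in MCF10DCIS.com, an established human breast cancer cell line derived from the MCF10A series that serves as a model of progression from ductal carcinoma in situ. One group of 3 libraries came from cells infected with a control vector, pRSI-U6-shLuc-UbiC-TagRFP-2A-Puro, whose hairpin targets firefly luciferase. The other 3 came from cells given the same backbone with hairpins against WDR5, which is a core subunit of the complexes that methylate histone H3 at lysine 4. Both groups were selected with puromycin at 3 µg/ml, grew in DMEM/F12 with horse serum, and carried the red fluorescent marker of the vector. The study's methods describe shWDR5 as pooled hairpins, so the effect of a single hairpin cannot be read from these libraries, and no library of uninfected cells was analysed here.

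HSP70 proteins bind short hydrophobic stretches of unfolded proteins in a cycle driven by ATP. J-domain proteins such as DNAJB1 bring clients to them and start ATP hydrolysis, and HSP110 proteins such as HSPH1 act as nucleotide exchange factors that reset the cycle. HSP90 takes over near-native clients from HSP70, among them kinases and steroid receptors, whereas HSPA9 (mortalin) pulls precursors into mitochondria and the HSPD1-HSPE1 chamber folds them there. Many of these genes are known targets of heat shock factor 1, which binds inverted repeats of a short GAA unit in their promoters.

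The question was how silencing of WDR5 changed the transcripts of this machinery. HSP90AA1 fell to 0.576 of its control level (edgeR quasi-likelihood test, adjusted p = 9.47e-07), whereas its paralog HSP90AB1 differed from the control by a log2 fold change of -0.02 ± 0.0562 (SE, adjusted p = 0.782). DNAJB1 rose by 23.0%. HSPH1 and HSPD1 fell by 9.33% and 11.0%, and the other 6 genes, HSPA8 included, did not pass the test. In counts, 3 of the 10 genes were called lower, beside 29.9% of all genes tested, and 1 was called higher, beside 26.6% of all genes tested. With an absolute log2 fold change of at least 0.6 required as well, HSP90AA1 was the 1 gene called lower and 0 were called higher, beside 12.0% and 10.9% of all genes tested. The median log2 fold change was -0.03 over the 10 genes and -0.01 over all genes tested, and the median absolute log2 fold change was 0.138 and 0.308.

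Sequencing depth was 38218108 to 48500509 counts assigned to genes in the shLuc libraries and 46097058 to 57640167 in the shWDR5 libraries. The targeted gene WDR5 was counted at 52.56, 48.48 and 51.35 CPM (counts-per-million of the TMM-scaled library total) in shLuc and at 23.38, 24.35 and 20.76 CPM in shWDR5, so that it fell by 55.0% (adjusted p = 8.67e-07, edgeR). The basal epithelial markers KRT5, KRT14, KRT17 and TP63 were detected in every library. Such epithelial markers did not move together: mean levels went from 820.3 to 1546 CPM for KRT5 and from 2159 to 4131 CPM for KRT17, but from 495.9 to 242.3 CPM for CDH1, from 283.3 to 224.7 CPM for EPCAM and from 2222 to 2299 CPM for ITGA6. Of 7 fibroblast markers 1 reached 1 CPM in every library, with sums of 22.1 to 23.9 CPM in shLuc and 15.0 to 18.0 CPM in shWDR5 and LUM at 0. Of 5 blood and endothelial markers 2 did so, with sums of 17.3 to 19.6 CPM in shLuc and 14.3 to 16.5 CPM in shWDR5 and CD3E at 0. The summed luminal markers lay between 3324 and 3590 CPM in shLuc and between 3230 and 3549 CPM in shWDR5. Most of this sum was KRT8 (mean 2024 CPM in shLuc and 2077 in shWDR5) and KRT18 (1367 and 1261). ESR1 stood at 3.68 and 3.44 CPM and GATA3 at 35.0 and 26.6 CPM, and PGR had 5 counts in total. In bulk libraries of this kind a change in the share of a cell state and a change in RNA per cell cannot be told apart, and whether the differences in these markers have a part in the chaperone values was not tested.

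Of the cytosolic HSP90 genes, HSP90AA1 fell and HSP90AB1 did not pass the test. HSP90AA1, the stress-inducible HSP90, lies at chr14:102547075-102606086 on the minus strand of hg19, with 13 exon blocks and 4074 exonic bases. It was counted at 3662, 3602 and 3865 CPM in the 3 shLuc libraries and at 2079, 2179 and 2151 CPM in the 3 shWDR5 libraries. Every silenced library was below every control library. The log2 fold change was -0.80 ± 0.0517 (SE), with a 95% interval from -0.91 to -0.68. Among the 87 genes with a mean of at least 1000 CPM, HSP90AA1 had the second lowest log2 fold change. Among all 16117 genes tested, 1186 had a lower one.

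HSP90AB1, the constitutive form, lies at chr6:44213903-44221625 on the plus strand of hg19, with 13 exon blocks and 2895 exonic bases. It gave 1993, 1876 and 1841 CPM in shLuc and 1963, 1878 and 1787 CPM in shWDR5. The groups overlapped, and the 95% interval of the difference ran from -0.15 to 0.10 on the log2 scale, which leaves out a fall of the size seen for HSP90AA1. Its only other counted copy, the pseudogene HSP90AB4P, held 90 to 145 counts per library (log2 fold change 0.03, adjusted p = 0.828, edgeR). Per length, HSP90AA1 stood above HSP90AB1 in the control and below it after silencing. The ratio of their RPKM values (CPM per kilobase of exon) within a library was 1.306, 1.364 and 1.492 in shLuc and 0.7526, 0.8242 and 0.8554 in shWDR5. Together the pair took 0.573% ± 0.0152 (SD, n = 3) of all counts in shLuc and 0.393% ± 0.00643 in shWDR5.

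Both HSP90 genes carry letters that match heat shock elements before an annotated start, and these are shown because 1 of the 2 genes fell and the other did not pass the test. The sequences are RefSeq promoter sequence of GRCh38.p14 on the gene's strand, and capitals mark 2 inverted GAA units (GAANNTTC or TTCNNGAA, each of which reads the same on both strands, and pairs may overlap). For HSP90AA1 the stretch is chr14:102087105-102087132 (minus strand, 88 to 61 bases before the start), and for HSP90AB1 it is chr6:44247693-44247865 (plus strand, 250 to 78 bases before the start).
HSP90AA1: TTCCGGAAGGTTCgggaggcTTCTGGAA
HSP90AB1: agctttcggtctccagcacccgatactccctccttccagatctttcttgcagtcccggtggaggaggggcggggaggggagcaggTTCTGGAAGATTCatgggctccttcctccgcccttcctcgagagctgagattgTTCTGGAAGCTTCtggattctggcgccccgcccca
HSP90AA1 held 3 such pairs in its 250 bases before this start and HSP90AB1 held 4. The other annotated starts of the 2 genes held 0. Over all 10 genes, 6 of 16 windows of 250 bases held a pair (37.5%), against 11.6% of 35116 windows of all genes, and 4 windows held 3 units in a row (25%), against 0.441%. The windows were read from another genome build than the counts, by gene symbol, and binding was not measured.

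**Figure D1:**
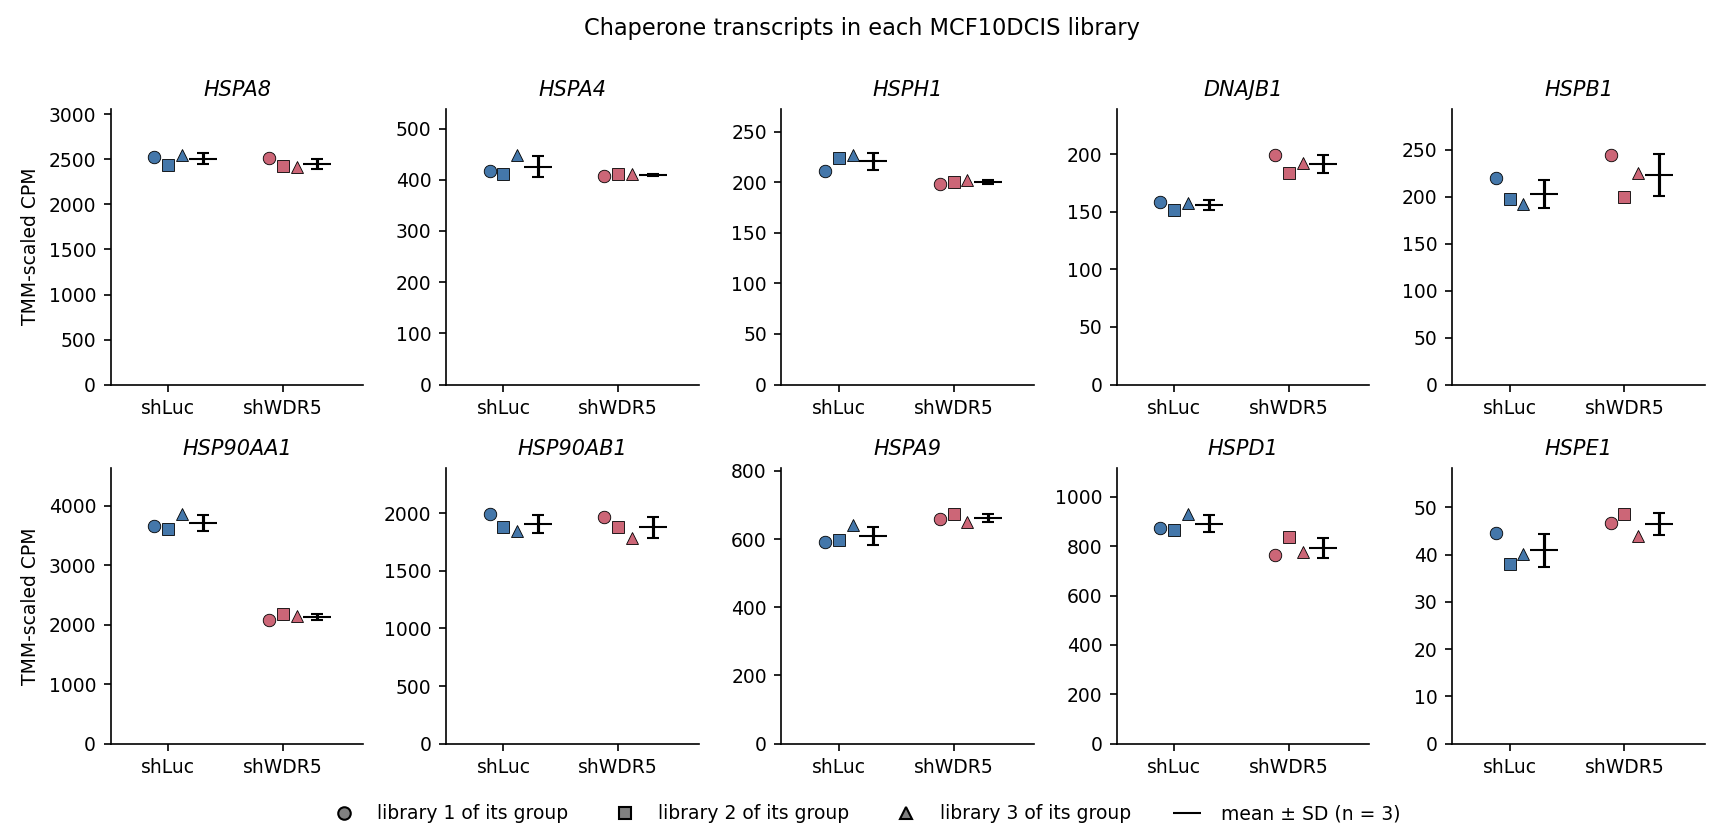
TMM-scaled CPM (vertical axes, each starting at 0) of the 10 chaperone genes in the 3 shLuc (blue) and 3 shWDR5 (red) libraries, with the mean and SD beside the points. HSP90AA1 drops from 3602 to 3865 CPM to 2079 to 2179 CPM, DNAJB1 rises, and HSPA8 and HSP90AB1 overlap between the groups.

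In the cytosolic HSP70 machine, the main chaperone HSPA8 did not pass the test, DNAJB1 rose and HSPH1 fell. HSPA8, the constitutive HSP70, lies at chr11:122928200-122933043 on the minus strand of hg19, with 9 exon blocks. It was counted at 2529, 2439 and 2552 CPM in shLuc and at 2514, 2424 and 2418 CPM in shWDR5. The groups overlapped, and the interval of the difference ran from -9.27% to 5.46% (log2 fold change -0.03 ± 0.0488 SE, adjusted p = 0.610, edgeR).

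DNAJB1, the J-domain partner that hands clients to HSP70 and also regulates heat shock factor 1, is a gene of 4 exon blocks at chr19:14625576-14629371 on the minus strand of hg19. It gave 158.9, 151.4 and 157.6 CPM in shLuc and 199.5, 183.7 and 192.1 CPM in shWDR5. All silenced libraries lay above all control libraries, and the log2 fold change was 0.30 ± 0.0536 (SE, adjusted p = 0.000821, edgeR), with a 95% interval from 0.18 to 0.42. The ratio of DNAJB1 to HSPA8 RPKM was 0.05765, 0.05696 and 0.05666 in shLuc and 0.07282, 0.06955 and 0.0729 in shWDR5. Matching pairs stood before an annotated start of both genes, and the stretches are given because the one rose and the other was not called. The DNAJB1 stretch is chr19:14518421-14518647 (GRCh38.p14, minus strand, 250 to 24 bases before the start) and the HSPA8 stretch is chr11:123062179-123062191 (minus strand, 55 to 43 bases before the start). Capitals again mark the pairs of 2 units.
DNAJB1: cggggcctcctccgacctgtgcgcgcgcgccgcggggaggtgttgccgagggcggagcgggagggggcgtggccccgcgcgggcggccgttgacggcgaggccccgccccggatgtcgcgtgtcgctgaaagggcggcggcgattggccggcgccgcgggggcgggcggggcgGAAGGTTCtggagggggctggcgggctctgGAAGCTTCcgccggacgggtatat
HSPA8: TTCTGGAAGGTTC
The HSPA8 window held 4 pairs, of which the 2 nearest to the start are printed, and the other 2 began 225 and 230 bases before it. The DNAJB1 window held 2 pairs and no run of 3 units, whereas the HSPA8 window held such runs.

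HSPH1, the HSP110 exchange factor, lies at chr13:31709111-31736525 on the minus strand of hg19. It gave 211.2, 223.6 and 227.1 CPM in shLuc and 197.8, 199.9 and 202.4 CPM in shWDR5. The groups did not overlap, and the log2 fold change was -0.14 ± 0.0511 (SE, adjusted p = 0.0365, edgeR). The call was lost when any library but shLuc 1 was left out (adjusted p from 0.0718 without shWDR5 3 to 0.0968 without shWDR5 2) and with upper-quartile scaling (adjusted p = 0.126). HSPA4, a second HSP110-type exchange factor of the cytosol at chr5:132387662-132440709 (plus strand, hg19), gave 416.4, 411.3 and 448.9 CPM in shLuc and 406.9, 411.3 and 411.0 CPM in shWDR5. These groups overlapped (log2 fold change -0.05 ± 0.0520 SE, adjusted p = 0.401).

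HSPB1, an ATP-independent holdase of the small heat shock protein family, lies at chr7:75931875-75933614 on the plus strand of hg19. It gave 219.9, 197.3 and 192.1 CPM in shLuc and 244.6, 199.2 and 225.4 CPM in shWDR5. It was the most variable of the 10 genes within the silenced group, with a coefficient of variation of 10.2%, and its groups overlapped (log2 fold change 0.14 ± 0.0805 SE, adjusted p = 0.180, edgeR). It was called higher without shLuc 1 (adjusted p = 0.0430) and without shWDR5 2 (adjusted p = 0.0481).

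**Figure D2:**
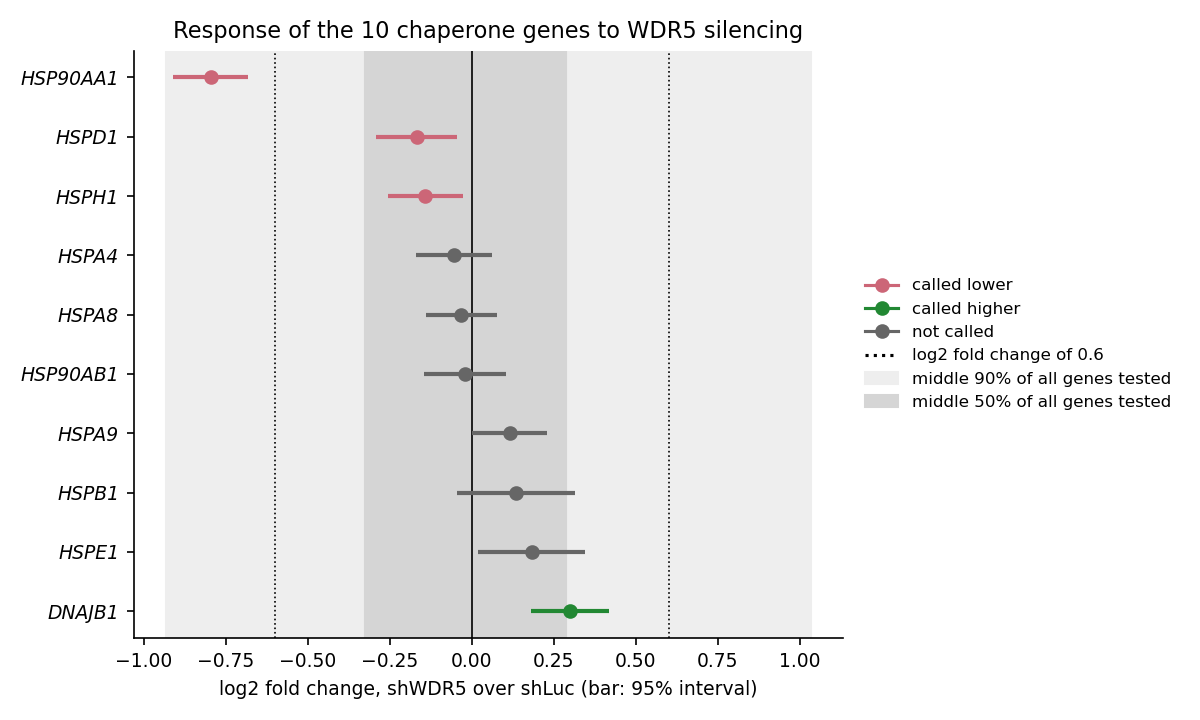
Log2 fold change of shWDR5 over shLuc (horizontal axis) for each chaperone gene with its 95% interval, coloured by the edgeR call, over grey bands that hold the middle 50% and 90% of all 16117 genes tested. HSP90AA1 (-0.80) is the 1 gene beyond the dotted lines at 0.6, and DNAJB1 (0.30) is the highest.

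Of the 3 mitochondrial chaperones, HSPD1 fell and the other 2 did not pass the test. HSPD1 (HSP60), the barrel of the chaperonin, lies at chr2:198351308-198364998 on the minus strand of hg19. It gave 874.9, 866.8 and 930.9 CPM in shLuc and 765.2, 837.8 and 775.5 CPM in shWDR5. The groups did not overlap (log2 fold change -0.17 ± 0.0559 SE, adjusted p = 0.0254, edgeR). The call was lost without shLuc 1 (adjusted p = 0.0515), shLuc 3 (0.1003), shWDR5 1 (0.0740) or shWDR5 3 (0.0826), while the log2 fold change stayed between -0.21 and -0.14.

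HSPE1 (HSP10), the lid of the same chamber, is the head-to-head neighbour of HSPD1, at chr2:198364721-198368187 on the plus strand. It gave 44.64, 37.91 and 40.1 CPM in shLuc and 46.65, 48.62 and 43.96 CPM in shWDR5. Its groups overlapped in 1 library of each group, shLuc 1 and shWDR5 3, and the log2 fold change was 0.18 ± 0.0738 (SE, adjusted p = 0.0567, edgeR). Without shLuc 1 it was called higher (log2 fold change 0.27, adjusted p = 0.00916), and without shWDR5 3 likewise (0.22, adjusted p = 0.0495). The level of HSPE1 is limited by the gene models: 608 of its 953 exonic bases are also covered by the readthrough gene HSPE1-MOB4 or by HSPD1, and HSPE1-MOB4 itself was listed at 0 in all 6 libraries. All HSPE1 counts divided by its unshared exonic bases alone gave 119 ± 9.96 RPKM (SD, n = 3) in shLuc and 135 ± 6.78 RPKM in shWDR5. Over its whole length the values were 42.9 ± 3.61 and 48.7 ± 2.45. The higher values are levels of HSPE1 only if no read in the shared bases was counted. How reads in shared exons were assigned was not given in the sources used here, and the unshared length was chosen after seeing the data.

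HSPA9, the mitochondrial HSP70 at chr5:137890571-137911318 (minus strand, hg19), gave 591.4, 597.6 and 640.0 CPM in shLuc and 657.8, 673.7 and 650.4 CPM in shWDR5. The groups did not overlap, but the gene did not pass the test (log2 fold change 0.12 ± 0.0515 SE, adjusted p = 0.0783, edgeR). It was called higher without shLuc 3 (log2 fold change 0.15, adjusted p = 0.0387). Within a library, the RPKM ratio of HSPA9 to HSPD1 was 0.4697, 0.479 and 0.4777 in shLuc and 0.5973, 0.5587 and 0.5828 in shWDR5, and the ratio of HSPD1 to HSPE1 was 7.666, 8.945 and 9.082 in shLuc and 6.417, 6.742 and 6.902 in shWDR5. Neither pair of ratios overlapped between the groups. The ratio of HSPD1 to HSPE1 used whole gene lengths, so its size carries the limit of the HSPE1 gene model given above. These ratios were chosen after the values were seen and are given without a test.

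The promoters of the chaperonin pair point away from each other. The HSPD1 window that held matching pairs and the HSPE1 window lie 38 bases apart, and the pairs stand 245 to 228 bases before that HSPD1 start, at chr2:197500068-197500085 (GRCh38.p14, minus strand). The stretch is printed because its 3 overlapping pairs lie between that HSPD1 start and the HSPE1 start, and HSPD1 fell while HSPE1 did not pass the test. For the other annotated HSPD1 start, with its window at chr2:197500275-197500524, the stretch lies after the start and not before it.
HSPD1: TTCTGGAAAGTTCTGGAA
The HSPE1 window held 0 pairs, and the E-box letters CACGTG (their own reverse complement) occurred in the windows of HSPA9, HSPE1 and the other HSPD1 start, of which the last 2 overlap each other. That motif was in 6.35% of all windows. Over the 6 libraries the genes whose centred log2 CPM lay nearest to that of HSPD1 were TRIM4, IFT57, FRAT2, GFM1 and OSBPL9, with root mean square differences of 0.012 to 0.023. HSPE1 ranked 6673 of 16116 in this likeness to HSPD1 (difference 0.196), and HSPH1 ranked 177 (difference 0.053).

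Compared per length, the 10 genes spanned from HSPA8 at 1019 ± 24.4 RPKM (SD, n = 3) to HSPH1 at 38.5 ± 1.46 RPKM in shLuc. The order in shLuc was HSPA8, HSP90AA1 (911 ± 33.9), HSP90AB1 (657 ± 27.5), HSPD1 (366 ± 14.3), HSPB1 (226 ± 16.5), HSPA9 (174 ± 7.55), HSPA4 (126 ± 6.02), DNAJB1 (58.2 ± 1.49), HSPE1 (42.9 ± 3.61) and HSPH1. The libraries of neighbouring genes in this order did not overlap, but HSPE1 (lowest library 39.78) and HSPH1 (highest library 39.65) were closer than their SDs. After silencing HSP90AB1 (648 ± 30.5) stood above HSP90AA1 (524 ± 12.6), and the other genes kept their places. With the unshared length HSPE1 would stand next to HSPA4, within its spread in shLuc. The 10 genes together took 1.09% ± 0.0313 of all counts in shLuc and 0.881% ± 0.0099 in shWDR5, and the mitochondrial trio took 0.157% ± 0.00704 and 0.147% ± 0.00598. Within the 10, the HSP90 pair went from 0.573% to 0.393%, and of this pair only HSP90AA1 was called lower. The shares are of counts without TMM scaling, and total-count scaling alone moved the median log2 fold change of all genes by -0.057.

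**Figure D3:**
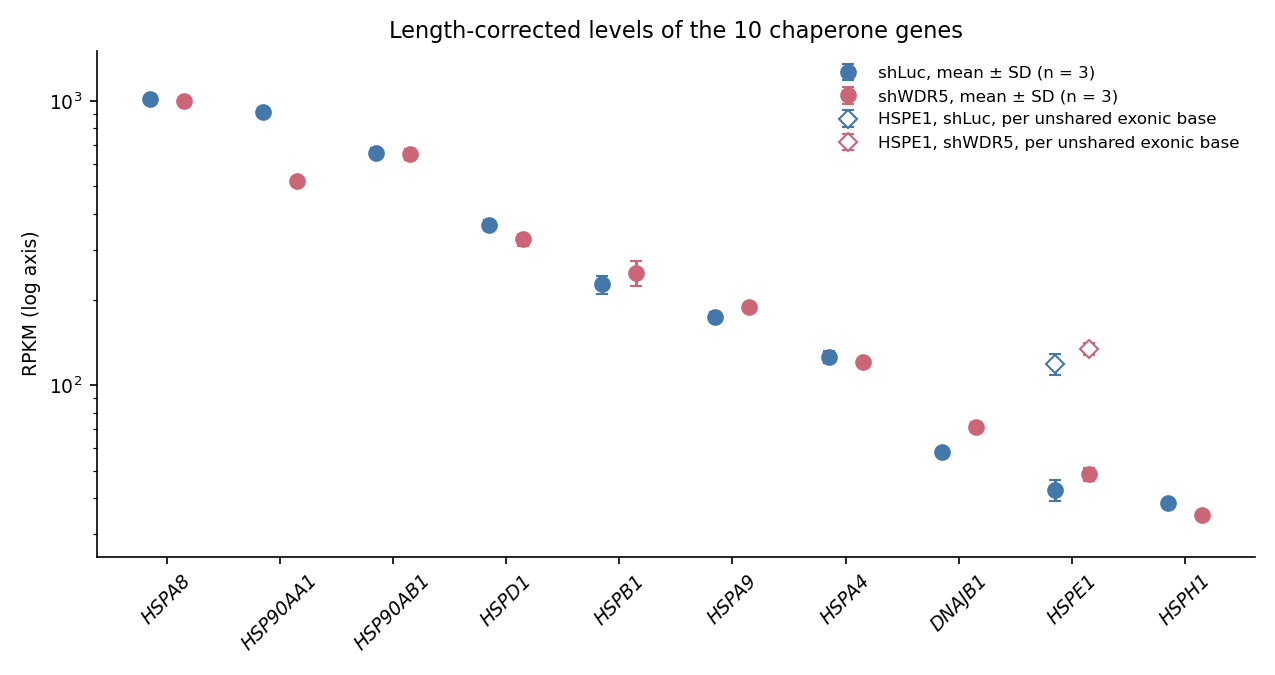
Mean RPKM and SD (vertical log axis) of the 10 chaperone genes in shLuc (blue) and shWDR5 (red), n = 3 libraries each, ordered by the mean over all 6 libraries. Open diamonds give all HSPE1 counts divided by its unshared exonic bases alone (119 and 135 RPKM), about the level of HSPA4.

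Partner and cofactor genes were taken from lists of chaperone families and heat shock genes. Of 125 partners tested (the 10 genes left out), 35 were called lower (28.0%), 25 higher (20.0%) and 65 neither, against 29.9% and 26.6% of all genes tested, and their median log2 fold change was -0.05. The lists share members with each other.

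Among the HSP90 and HSP70 co-chaperones, 11 of 22 were called lower and 3 higher (beside 29.9% and 26.6% of all genes tested), with a median log2 fold change of -0.15. FKBP5, an immunophilin of steroid receptor complexes, fell from 4.53 to 2.60 RPKM (log2 fold change -0.80 ± 0.0620 SE, adjusted p = 2.93e-06, edgeR). UNC45A, a myosin chaperone that works with HSP90, fell from 21.1 to 13.4 RPKM (-0.66, adjusted p = 1.03e-05). In the other direction, the ubiquitin ligase STUB1 (CHIP) rose from 14.2 to 27.4 RPKM (0.95, adjusted p = 6.87e-07) and the kinase-specific HSP90 adaptor CDC37 rose from 70.0 to 111 RPKM (0.66, adjusted p = 6.79e-06). Of the exonic bases of STUB1, 667 of 1695 are shared with JMJD8. Of the 2 other HSP90 family genes, the endoplasmic reticulum form HSP90B1 fell from 560 to 463 RPKM (-0.27, adjusted p = 0.0007), and the mitochondrial form TRAP1 stood at 74.6 and 72.7 RPKM (-0.04, adjusted p = 0.621).

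In the HSP70 and HSP110 family, 4 of 12 other genes were called lower (33.3%, beside 29.9% of all genes tested) and 2 higher (16.7%, beside 26.6%). The heat-inducible HSPA1B fell from 14.0 to 5.28 RPKM (log2 fold change -1.40 ± 0.132 SE, adjusted p = 1.04e-05, edgeR), while its near-identical copy HSPA1A stood at 6.59 and 7.14 RPKM (0.12, adjusted p = 0.174). Reads can be split between these copies by the counting, so the single values are uncertain, and their sum went from 51.3 ± 4.40 CPM (SD, n = 3) to 30.7 ± 1.69 CPM. HSPA12A also fell (-0.53, adjusted p = 0.00101), and the 2 genes called higher, HSPA6 and HSPA1L, were below 1 RPKM in both groups and are named here after their values were seen. Of 38 other J-domain genes, 11 were called lower (28.9%, beside 29.9% of all genes tested) and 7 higher (18.4%, beside 26.6%). DNAJB2, which hands clients to the proteasome, rose from 12.6 to 20.9 RPKM (0.73, adjusted p = 7.54e-06), and DNAJC25 rose (0.63, adjusted p = 0.00148), whereas DNAJC18 (-0.52) and DNAJC16 (-0.50) fell. Of 11 other exchange factors, 3 were lower (27.3%) and 1 was higher (9.09%), beside the same shares of all genes: HSPA4L fell from 27.2 to 21.6 RPKM, HSPBP1 fell (-0.31, adjusted p = 0.00634), and GRPEL1, the exchange factor of HSPA9, rose from 35.3 to 44.5 RPKM (0.33, adjusted p = 0.00121).

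Among the mitochondrial partners, 2 of 19 other folding and proteolysis genes were lower (10.5%) and 5 higher (26.3%), and 2 of 18 import genes were lower (11.1%) and 3 higher (16.7%). Over all genes tested these shares were 29.9% and 26.6%. In the folding and proteolysis list, DNAJC19 (-0.44, adjusted p = 0.000518) and the disaggregase CLPB (-0.42, adjusted p = 0.000815) fell (edgeR). DNLZ, which keeps HSPA9 soluble (0.42, adjusted p = 0.0155), and the protease subunit SPG7 (0.42, adjusted p = 0.000165) rose (edgeR). In the import list, TIMM9 (-0.33) and TOMM22 (-0.21) fell and TIMM8B (0.30) and TIMM22 (0.23) rose, with exonic bases of TIMM9 (396) and TIMM8B (336) shared with neighbouring genes.

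Of the small heat shock protein list 3 other genes could be tested: HSPB11 fell (-0.39), while CRYAB rose from 2.82 to 5.52 RPKM (0.96, adjusted p = 0.00208, edgeR) and CRYAA, near 0 in shLuc, was called higher. Of 5 heat shock factors and regulators, 1 was lower and 2 were higher, numbers too small to set beside the 29.9% and 26.6% of all genes tested. HSF2 fell (-0.41, adjusted p = 0.000669) and HSF4 rose (0.74, adjusted p = 0.000192), with 594 exonic bases of HSF4 shared with FBXL8. HSF1, the main heat shock factor and named after its value was seen, missed the threshold (0.19 ± 0.0752 SE, adjusted p = 0.0508). Of 18 other heat-inducible genes, 6 were called lower and 5 higher (33.3% and 27.8%, near the 29.9% and 26.6% of all genes tested). Besides HSPA1B and CRYAB, CHORDC1 fell (-0.41, adjusted p = 0.00922, with groups that overlapped), and DNAJA1 rose from 106 to 123 RPKM (0.22, adjusted p = 0.0123).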

How the data were processed

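RNA from 6 MCF10DCIS.com libraries (3 shLuc, 3 shWDR5) was prepared with a poly-A TruSeq kit. Per the labels, reads were aligned to hg19 with TopHat2 2.1.0 and the authors deposited raw counts per gene from featureCounts, with gene models and lengths; strandedness and the treatment of multi-mapped or overlapping reads were not given in the sources used here. A deposited table of the authors' edgeR 3.2.2 comparison (fold changes and p-values) was not used.

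Counts were filtered with filterByExpr, scaled by TMM and tested with the edgeR 4.0.16 quasi-likelihood test in R 4.3.3, group being the only term, with Benjamini-Hochberg adjustment over 16117 genes. A gene was called at an adjusted p under 0.05. The intervals printed are 95% intervals. RPKM used the deposited lengths and TMM-scaled totals. The fit was tested on simulated data. Alternatives were other scalings and filters, DESeq2 1.42.0, the edgeR exact test, limma-voom (limma 3.58.1), a replicate block and the removal of each library.

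The members and lists were chosen with earlier results of these data known. All 10 chaperones were named, and per list up to 2 genes called in each direction with the largest change and a mean of at least 1 RPKM, annotated copies of the 10, and the 5 genes nearest to HSPD1. Older symbols matched TOMM70A but not TOMM70. The list genes HSPB2, HSPB3, HSPB6, HSPB7, HSPB8, HSPB9, ODF1 and HSF5 were too low to test. Promoter windows are the 250 bases before each RefSeq start. The labels do not say whether replicates were separate cultures. The study's statistics section speaks of biological triplicates unless stated otherwise, without naming these libraries. The p-values therefore measure only the spread between these libraries, which may be technical. One marker of the basal epithelial list, and the list's summed level, are not reported here.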

Additional observations from a re-analysis of the deposited data

How the results depend on the processing

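HSP90AA1 and DNAJB1 were called in the same direction in 15 of 15 alternatives, with log2 fold changes from -0.85 to -0.76 and from 0.24 to 0.34. HSPA8, HSPA4 and HSP90AB1 were called in 0 of 15. The other 5 genes crossed the threshold: HSPD1 was called in 9 of 15, HSPE1 in 7, HSPH1 and HSPA9 in 5 and HSPB1 in 3, each with 1 sign throughout. The count of members called lower, 3, became 1 with upper-quartile scaling and 1 with DESeq2, and lay between 1 and 2 when a library was left out. The count called higher, 1, became 3 with RLE scaling, 3 with upper-quartile scaling, 3 with a filter on a mean above 0.5 RPKM and 2 with DESeq2, and lay between 1 and 3 when a library was left out. The sign of HSP90AB1 changed with upper-quartile scaling (log2 fold change 0.0162), without shLuc 1 (0.0282) and without shWDR5 3 (0.0130), with values between -0.0544 and 0.0282 when a library was left out. That of HSPA8 changed with upper-quartile scaling (0.0051). Neither gene was called in any of these. The cause was not tested. No scaling moved the median of all genes by more than 0.057 on the log2 scale in size, with total-count scaling (-0.057) the farthest, where 5498 genes were called lower and 3705 higher, against 4821 and 4291.

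Replicate numbers matched the libraries only in part. Correlations of same-numbered deviations were 0.372, 0.036 and 0.116 for numbers 1, 2 and 3. The highest of each shLuc library with a shWDR5 library of another number were -0.099, 0.21 and 0.068. Of the shLuc libraries, number 2 alone thus correlated better with another number. The same was not examined from the side of the shWDR5 libraries. With the number as a replicate block, 4 members were called higher and 3 lower, and 5511 and 4901 of all genes were called lower and higher. Besides DNAJB1, the block called HSPA9, HSPB1 and HSPE1 higher (edgeR, adjusted p = 0.02805, 0.02475 and 0.01654). With the length of unshared exonic bases, a choice made after seeing the data, HSPE1 stood at 118.5 RPKM in shLuc and 134.5 in shWDR5. The least counted of the 10 genes was HSPE1, with a mean of 43.6 CPM over the 6 libraries.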
